A study of Mus musculus with 12 samples.

Results

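The comparison described here set dermal papilla cells of Smo* mice against those of wild-type (WT) mice at postnatal day 28 (P28). Its members were chosen by the labels of genotype and age, and they are 6 of the 12 libraries of the series. The cells had been sorted by FACS from mouse skin, their total RNA was depleted of ribosomal RNA, and a normalized read count was deposited for each gene. The 3 P28 Smo* libraries came from males, carry a gain-of-function Smo allele that the series describes as specific to the dermal papilla, and are labelled anagen I-III. The 3 P28 WT libraries came from males without that allele and are labelled anagen VI. The other 6 libraries are 3 Smo* and 3 WT libraries of females at P20 in telogen. They are used below for values at P20, for the difference between ages and in an alternative fit of all 12 libraries. No treatment is named for any group. The promoter that drives the mutant allele, the strain and the sorting gate are not given in the sources used here.

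Genotype and labelled growth stage differ together at P28, so the Smo* allele and the earlier stage cannot be told apart in any value below. No label says that libraries came from separate animals, so the p-values measure the spread between these libraries, which may be technical. In bulk RNA, fewer cells of a type and less RNA per cell cannot be told apart either. Replicate numbers only name libraries, in the order of the samples.

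The dermal papilla is a cluster of mesenchymal cells enclosed by the lower end of the hair follicle. It exchanges signals with the epithelial cells that build the hair. Hair follicles cycle through growth (anagen), regression (catagen) and rest (telogen). Early anagen covers the start of epithelial downgrowth, and anagen VI is the stage at which a full-length follicle makes the hair shaft. Hedgehog proteins from the epithelium bind the receptor Ptch1 on papilla cells, which frees the membrane protein Smo to activate Gli transcription factors. Active Gli factors raise transcription of Gli1, Ptch1 and Hhip, so these genes are commonly read as the output of the pathway. The papilla is also known as a source of R-spondins, Wnt modulators, BMP antagonists and FGFs.

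Between 36323058 and 48926831 reads lay on genes in the 6 P28 libraries. Smo* replicate 3 stood apart from the rest. It had a read in 15453 genes against 17418 to 17876 in the other 5, at a depth within their range, and 218 tested genes were at 0 in it while both other Smo* libraries were at 10 or more. Its summed adipocyte markers were the highest of the 6 libraries and its summed dermal papilla markers the lowest, as given below with the markers. P28 counts and most P28 calls that rest on it, or on any other single library, are given with and without that library. For single genes, the difference between ages is given only from the fit of all libraries.

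Of 14757 genes tested, 1313 (8.9%) passed the limma test at an adjusted p of 0.05. In Smo* 597 were higher (4.05%) and 716 were lower (4.85%), the background against which counts of list members are read below. The median log2 fold change over all genes tested was -0.01. Median fold changes of the called genes were 2.11 among those higher and 2.44 among those lower, and 786 called genes (5.33%) differed at least 2-fold. The 2 groups did not overlap in 33.4% of the genes tested, with Smo* above WT in 15.6% and below in 17.8%. Among the called genes they did not overlap in 100%. For a called gene, groups that lie apart therefore describe its values and add nothing to the call. The authors' deposited table called 2880 of 17160 genes. In Smo* 1446 of those were higher and 1434 lower there, and the same direction was called for 1276 of the 1313 genes. The quasi-likelihood test of edgeR on the recovered reads called 1336 genes (9.05%), of which 1270 were among the 1313. The count lay between 461 and 1619 with 1 library left out. With Smo* replicate 1, 2 or 3 left out it was 852, 1147 and 1619, and with WT replicate 1, 2 or 3 left out it was 795, 472 and 461. A total of 390 genes were called in every one of the 6 fits.

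**Figure D1:**
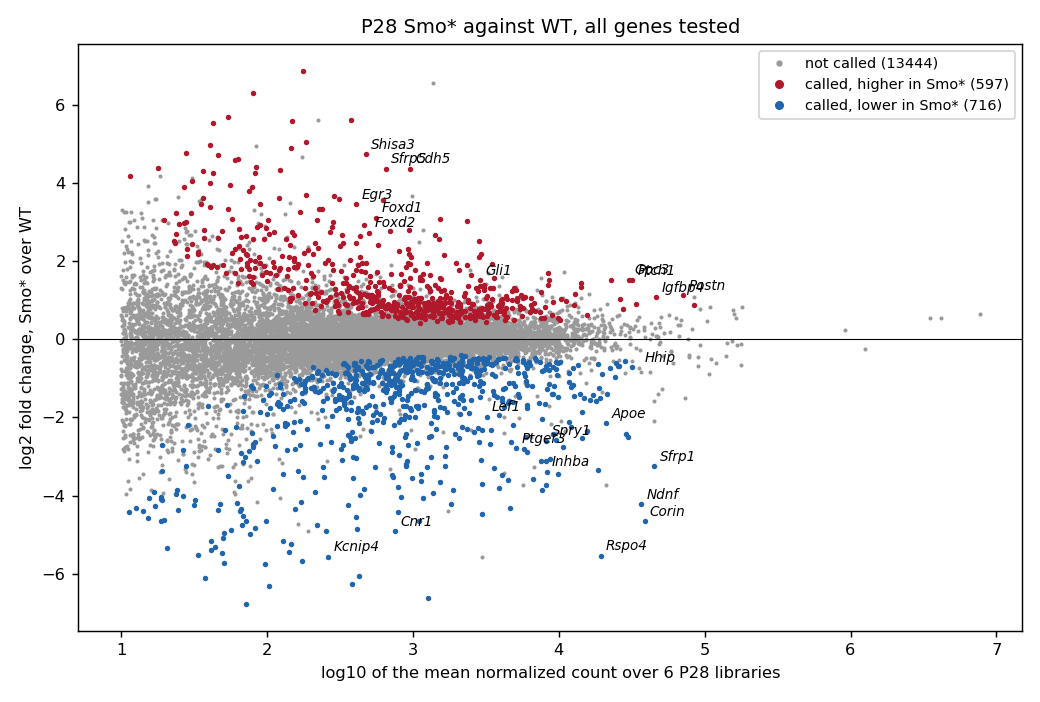
Log2 fold change of Smo* over WT at P28 (vertical axis) against log10 of the mean normalized count over the 6 libraries (horizontal axis) for the 14757 genes tested; red points are the 597 genes called higher, blue points the 716 called lower and grey points the genes not called. Corin, Ndnf, Sfrp1 and Rspo4 lie among the most abundant genes called lower, while Shisa3, Sfrp5 and Cdh5 lie high at lower abundance.

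Of 14 Hedgehog target genes, all tested, 7 were higher in Smo*, 0 were lower and 7 did not pass the test, with a median log2 fold change of 1.36. The log2 fold change lay above 0 in 11 and below 0 in 3. Gli1, the transcription factor whose own gene is a pathway target, had 1581, 1396 and 1484 normalized counts in WT and 4270.2, 4435 and 4071 in Smo* (log2 change 1.52 with SE 0.11, limma adjusted p = 0.000237). The groups were far apart and Smo* replicate 3 lay with the other Smo* libraries. Ptch1 had 14470.1, 18532 and 15012 normalized counts in WT and 51732, 61548 and 29067 in Smo* (log2 change 1.51 with SE 0.28, limma adjusted p = 0.0152), with Smo* replicate 3 the lowest of its group but above every WT library. The forkhead factors Foxd1, Foxd2 and Foxf1, which Hedgehog signalling raises in several mesenchymes, rose as well. Foxd1 had 103, 144 and 100.4 normalized counts in WT and 1126, 914 and 964 in Smo* (log2 change 3.12 with SE 0.19, limma adjusted p = 0.00014). Foxd2 rose from 129 ± 35 to 878 ± 315 (log2 change 2.73). Foxf1 rose from 10.04 ± 2.56 to 104 ± 59.3 (log2 change 3.09), still a low level. The cyclin Ccnd2 rose from 4167 ± 1040.2 to 7172 ± 960.2 (log2 change 0.80). The calls of Gli1, Foxd1 and Foxd2 held with each library left out, and 3 others depended on single libraries, named below by group and replicate. The call of Foxf1 ended without Smo* 1 or WT 2 or 3 (limma adjusted p 0.0553 to 0.0637). The call of Ptch1 ended without WT 1, 2 or 3 (limma adjusted p 0.0529 to 0.0653). The call of Ccnd2 ended without Smo* 1 or 3, or WT 2 or 3 (limma adjusted p 0.0579 to 0.14). In this list, the number called higher became 4 without WT 2 or 3, and the number called lower became 1 without Smo* 2.

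Hhip, which binds Hedgehog ligands at the cell surface and is itself a pathway target, was not called. It had 36605, 42639 and 42843 normalized counts in WT and 33486, 49363 and 8915 in Smo* (log2 change -0.73 with SE 0.55, limma adjusted p = 0.43). Smo* replicates 1 and 2 lay on both sides of the WT libraries and only Smo* replicate 3 lay well below them. Without that library the log2 fold change was 0.00 with an adjusted p of 0.996. Smo, the gene carrying the mutation, had 5725, 5418 and 6144 normalized counts in WT and 7487, 8694 and 7551 in Smo*, every Smo* library above every WT library, and just missed the threshold (log2 change 0.46 with SE 0.12, limma adjusted p = 0.0502). Reads of the mutant and the normal copy were not told apart.

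Among genes that carry or tune the Hedgehog signal, 16 of 20 were tested and 1 was higher in Smo*, 2 were lower and 13 did not pass the test, with a median log2 fold change of 0.03. The ligands Shh, Ihh and Dhh were below the filter of a mean of 10. Cdon, a co-receptor for Hedgehog ligands, rose from 2998 ± 949 to 7168 ± 1794 (log2 change 1.27). Gli3, the factor that acts mainly as a repressor, fell from 4307 ± 301 to 2807 ± 460.4 (log2 change -0.63). Scube1, a secreted protein of a family that helps Hedgehog ligands spread, had 27677, 30147 and 40264 normalized counts in WT and 4993, 7549 and 844 in Smo* (log2 change -3.35 with SE 0.70, limma adjusted p = 0.0246), and no Smo* library came near the WT range. Its relative Scube3, chosen after its values were seen, had 60702, 64718 and 81602 normalized counts in WT and 23911, 32082 and 5391 in Smo* and missed the threshold (log2 change -2.09 with SE 0.58, limma adjusted p = 0.0656). The call of Cdon ended without WT 2 or 3 (limma adjusted p 0.0742 to 0.0822). The call of Scube1 ended without WT 1, 2 or 3 (limma adjusted p 0.0638 to 0.093). The call of Gli3 ended without Smo* 1 or WT 1, 2 or 3 (limma adjusted p 0.0653 to 0.133). For these genes, the number called higher became 0 without WT 2 or 3 and 2 without Smo* 3 or WT 1, and the number called lower became 0 without WT 1, 2 or 3 and 1 without Smo* 1. Gli2 (0.32, limma adjusted p = 0.181), Boc (-0.06, limma adjusted p = 0.882) and Sufu (-0.17, limma adjusted p = 0.398) did not pass the test on the log2 scale. Neither did Gas1 (-0.04, limma adjusted p = 0.936), which is counted above among the Hedgehog target genes and not in this list.

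Promoter sequence was compared with these calls through the GLI consensus GACCACCCA (reverse complement TGGGTGGTC). It was searched on both strands in windows of the 250 bases before RefSeq gene starts (GRCm38.p6). Windows of a whole chromosome were left out, not every tested gene had a window, and some genes had several. The windows covered 11237 tested genes, with 455 of those higher in Smo* and 527 of those lower. The motif was found in 25 of 14355 windows of tested genes (0.174%), in 5 of 597 windows of genes higher in Smo* (0.838%) and in 0 of 739 windows of genes lower in Smo*. None of the 8 windows available for Hedgehog target genes held it, which says only that these letters are not in those windows. The 25 genes with the motif comprised 5 called higher (20%) and 20 not called. Their median log2 fold change was 0.02, with 14 above 0. The 5 were Ank2, Uaca, Magi3, Arl5b and Espl1, with limma adjusted p from 0.00325 (Ank2) to 0.0438 (Espl1). Their values with a library left out are not given. Ank2, an adaptor between membrane proteins and the cytoskeleton, rose from 2657 ± 283 to 5461 ± 613 (log2 change 1.04). Arl5b, a small GTPase of the Golgi, rose from 1382 ± 178 to 3103 ± 1229.8 (log2 change 1.11). Both were chosen after their values were seen. Their windows are shown with that of Ptch1, a called target without the motif. The motif is in capitals, and each window is written 5′ to 3′ on the strand of the gene.

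Ank2 (chr3:127409059-127409308, - strand): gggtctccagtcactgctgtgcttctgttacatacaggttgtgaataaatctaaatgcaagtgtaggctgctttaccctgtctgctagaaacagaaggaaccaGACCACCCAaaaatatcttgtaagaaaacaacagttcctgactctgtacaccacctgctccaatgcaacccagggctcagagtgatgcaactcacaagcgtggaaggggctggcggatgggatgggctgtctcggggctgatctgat

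Arl5b (chr2:15055070-15055319, + strand): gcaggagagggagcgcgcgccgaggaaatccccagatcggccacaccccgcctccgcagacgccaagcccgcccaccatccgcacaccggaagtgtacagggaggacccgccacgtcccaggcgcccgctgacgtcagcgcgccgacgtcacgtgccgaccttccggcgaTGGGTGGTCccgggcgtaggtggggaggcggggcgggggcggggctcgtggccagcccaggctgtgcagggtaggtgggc

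Ptch1 (chr13:63565736-63565985, - strand): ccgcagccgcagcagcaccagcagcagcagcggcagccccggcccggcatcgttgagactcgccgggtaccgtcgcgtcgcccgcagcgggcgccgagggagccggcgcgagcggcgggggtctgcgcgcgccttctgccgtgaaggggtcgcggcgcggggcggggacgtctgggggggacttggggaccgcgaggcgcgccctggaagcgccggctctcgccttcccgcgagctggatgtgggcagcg

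Among genes that mark the dermal papilla, more were called lower than higher in Smo*. Of 40 signature genes tested, 4 were higher in Smo*, 13 were lower and 23 did not pass the test, with a median log2 fold change of -1.52. Corin, a membrane protease of the papilla that affects coat colour, had 69922, 69681 and 79819 normalized counts in WT and 4148, 7856 and 751 in Smo* (log2 change -4.65 with SE 0.72, limma adjusted p = 0.00795). The highest Smo* library lay far below the lowest WT library, and Smo* replicate 3 was lower again. Rspo4, a secreted amplifier of Wnt signalling, had 35498, 39795 and 37850.2 normalized counts in WT and 635, 2136 and 393 in Smo* (log2 change -5.54 with SE 0.52, limma adjusted p = 0.000803). Ndnf, a secreted glycoprotein, had 64876, 68956 and 71256 normalized counts in WT and 5567, 9436 and 943 in Smo* (log2 change -4.22 with SE 0.72, limma adjusted p = 0.0116). In each of these genes the WT libraries lay close together and the Smo* libraries spread widely. Inhba, the subunit that forms activin A, had 14436, 16177 and 14058 normalized counts in WT and 1885, 2240.1 and 672 in Smo* (log2 change -3.39 with SE 0.40, limma adjusted p = 0.00219). Itga9, an integrin chain, fell from 24158 ± 1271 to 4741 ± 2515 (log2 change -2.51). Pappa2, a protease that cleaves IGF-binding proteins, fell from 49939 ± 5899.6 to 9789 ± 5566 (log2 change -2.500). Spon1, a matrix protein, fell from 47665 ± 2899.6 to 10124 ± 5658 (log2 change -2.41). Lef1, a transcription factor that carries the Wnt signal, had 4037, 6154 and 4965 normalized counts in WT and 1317, 1968 and 763 in Smo* (log2 change -1.99 with SE 0.32, limma adjusted p = 0.00933). The retinoid-binding protein Crabp1 (-2.58), Bmp3 (-1.64), Fgf10 (-2.75), the anion transporter Slc26a7 (-2.29) and Snap91 (-3.27), a clathrin adaptor, completed the 13, as log2 fold changes.

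Signature genes called higher included transcription factors. Sox18, a transcription factor of the papilla and of vessels, had 361, 371 and 413 normalized counts in WT and 958, 1704 and 1886 in Smo* (log2 change 1.93 with SE 0.25, limma adjusted p = 0.00314). Cxcr4, a chemokine receptor, rose from 283 ± 50.3 to 1574 ± 833 (log2 change 2.31), Glis2 rose from 2380.1 ± 234 to 4223 ± 689 (log2 change 0.82), and Foxd1 is given above. Several abundant papilla genes were lower in every Smo* library but missed the threshold, and those named next were chosen after their values were seen. Rspo3 had 13624, 13379.7 and 18286 normalized counts in WT and 4798, 6539 and 731 in Smo* (limma adjusted p = 0.079), and Fgf7 had 12150.5, 12831 and 16384 normalized counts in WT and 4219, 6789 and 984 in Smo* (limma adjusted p = 0.0656). Every Smo* library of both was below every WT library, with Smo* replicate 3 several fold lower than its group. Without that library the adjusted p was 0.00325 for Rspo3 and 0.00778 for Fgf7. Sostdc1, a secreted antagonist of BMP and Wnt signals, had 30174, 30557 and 46741 normalized counts in WT and 4595, 13862 and 291 in Smo* (limma adjusted p = 0.0943). Wnt5a pointed the other way, with 9058, 8286 and 8926 normalized counts in WT and 21311, 27963 and 10051 in Smo* (limma adjusted p = 0.0919). Other classic papilla markers did not pass the test: Alpl had 5729, 6563 and 7672 normalized counts in WT and 6056, 9234 and 1736 in Smo* (limma adjusted p = 0.562), and Sox2 had 249.2, 312 and 448 normalized counts in WT and 768, 1453 and 285 in Smo* (limma adjusted p = 0.243). In both, Smo* replicates 1 and 2 were close to or above WT while Smo* replicate 3 was at the bottom of its group. The proteoglycan Vcan had 104114, 141809 and 133244 normalized counts in WT and 96288, 142994 and 22655 in Smo* (limma adjusted p = 0.39).

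The signature's count was sensitive to single libraries: the number called higher became 2 without WT 2 and 8 without Smo* 3, and the number called lower became 6 without WT 2, 20 without Smo* 2 and 21 without Smo* 3. The median log2 fold change was -0.95 without Smo* replicate 3. The calls of Ndnf, Spon1, Lef1, Bmp3 and Cxcr4 ended without WT 2 (limma adjusted p 0.0522 to 0.0673). The calls of Crabp1, Slc26a7 and Glis2 ended without WT 2 or 3 (limma adjusted p 0.0593 to 0.0745). The call of Fgf10 ended without Smo* 1 or WT 1, 2 or 3 (limma adjusted p 0.0797 to 0.148). Those of Corin, Rspo4, Inhba, Itga9, Pappa2, Snap91, Foxd1 and Sox18 held in all 6 fits. In GRCm38, Corin is ENSMUSG00000005220 (chromosome 5, 72300025 to 72504473), Rspo4 is ENSMUSG00000032852 (chromosome 2, 151842927 to 151874668), Ndnf is ENSMUSG00000049001 (chromosome 6, 65671590 to 65712326), Inhba is ENSMUSG00000041324 (chromosome 13, 16011851 to 16031621) and Foxd1 is ENSMUSG00000078302 (chromosome 13, 98354242 to 98359305).

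**Figure D2:**
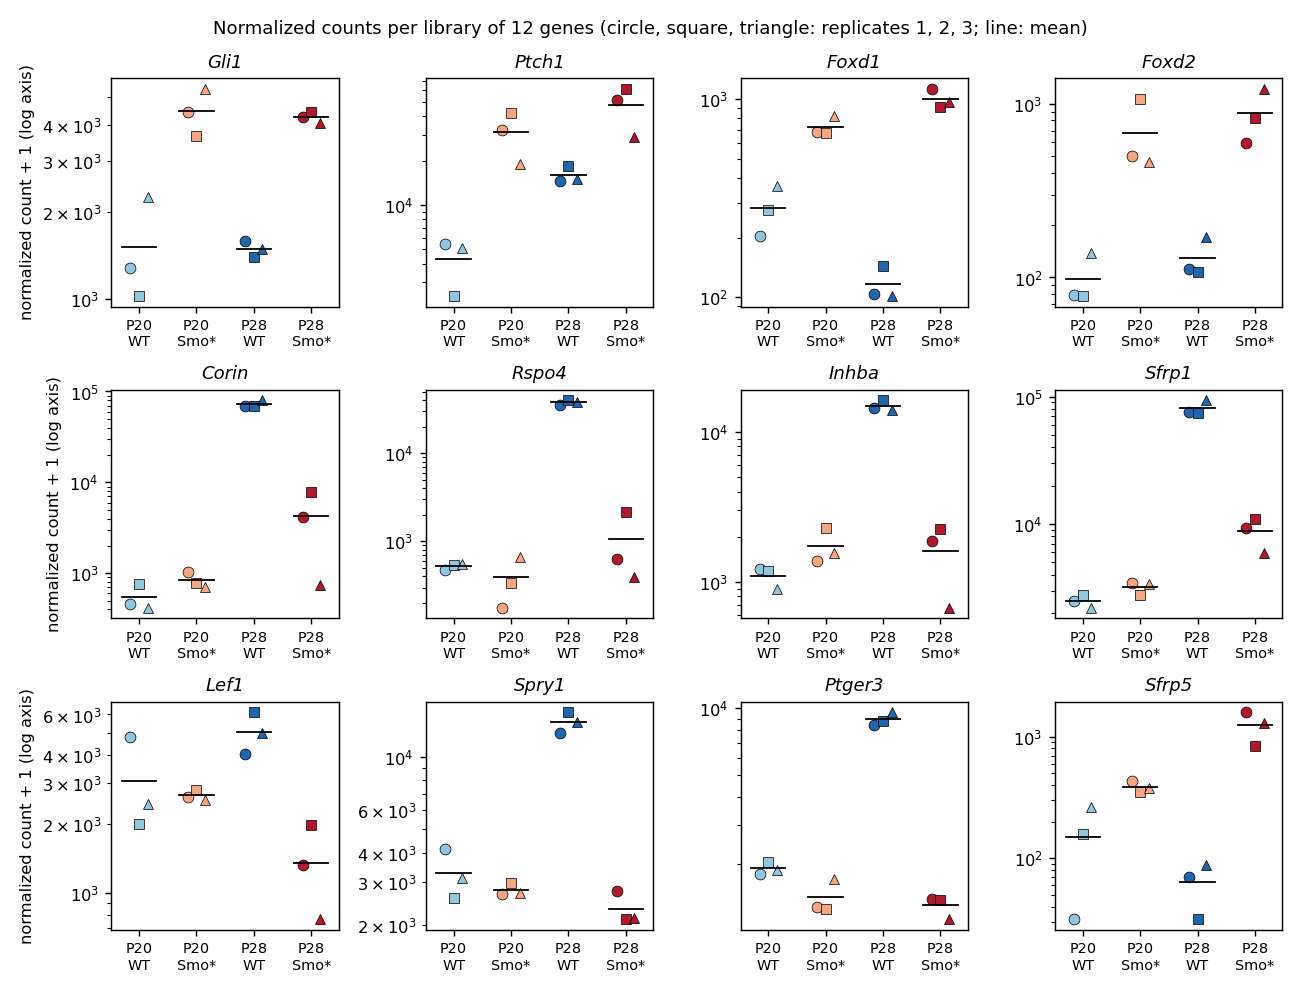
Normalized count + 1 on log axes for 12 genes in each of the 4 groups, with circles, squares and triangles for replicates 1, 2 and 3 and a line at the mean. At P28, Gli1, Ptch1, Foxd1, Foxd2 and Sfrp5 are higher in every Smo* library than in any WT library, and Corin, Rspo4, Inhba, Sfrp1, Lef1, Spry1 and Ptger3 are lower in every Smo* library.

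Wnt signalling genes were called in both directions, and most did not pass the test. Among 8 R-spondins and receptors, 2 were higher in Smo*, 2 were lower and 4 did not pass the test, with a median log2 fold change of -0.64. Rspo1 fell from 6789 ± 773 to 2340.2 ± 761.7 (log2 change -1.59) and Rspo4 is given above, while the receptors Lgr5 and Lgr6 rose. Lgr6 rose from 382 ± 191 to 1544 ± 128 (log2 change 2.12) and Lgr5 rose from 329 ± 19.3 to 799 ± 245 (log2 change 1.23). Among 27 Wnt ligands and receptors tested, 4 were higher in Smo*, 1 was lower and 22 did not pass the test, with a median log2 fold change of 0.54. Wnt6 had 143, 185 and 100.4 normalized counts in WT and 684, 354 and 772 in Smo* (log2 change 2.04 with SE 0.34, limma adjusted p = 0.0107), and Wnt16 had 71.7, 59.4 and 32.2 normalized counts in WT and 165, 248 and 278 in Smo* (log2 change 2.10 with SE 0.36, limma adjusted p = 0.0122). Each Smo* library of both ligands was above all WT libraries. Wnt9a rose from 234 ± 19.8 to 446 ± 83.1 (log2 change 0.91) and the co-receptor Lrp4 rose from 2469 ± 499 to 4391 ± 518 (log2 change 0.84), whereas the receptor Fzd1 fell from 16023 ± 466 to 7577 ± 697 (log2 change -1.08). The call of Lrp4 ended without Smo* 1 or WT 1 or 3 (limma adjusted p 0.062 to 0.0742). The calls of Lgr5 and Wnt9a ended without Smo* 1 or WT 1, 2 or 3 (limma adjusted p 0.0504 to 0.105). In the ligand and receptor list the number called higher became 2 without Smo* 1 or WT 1 or 3 and 7 without Smo* 3. In the R-spondin list the number called higher became 1 without Smo* 1 or WT 1, 2 or 3, and the number called lower became 4 without Smo* 3.

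Secreted Wnt inhibitors were called in both directions. Of 13 tested, 3 were higher in Smo*, 3 were lower and 7 did not pass the test, with a median log2 fold change of -0.91. Sfrp1, a decoy that binds Wnt proteins, had 76159.7, 74094 and 93334 normalized counts in WT and 9388, 10925 and 5938 in Smo* (log2 change -3.25 with SE 0.24, limma adjusted p = 0.000281). Its relative Sfrp5 had 69.1, 30.9 and 87.5 normalized counts in WT and 1596, 842 and 1289.9 in Smo* (log2 change 4.37 with SE 0.40, limma adjusted p = 0.000697). The abundant Sfrp1 was high in WT and the scarcer Sfrp5 was high in Smo*. Sost, the inhibitor also called sclerostin, rose from 2.45 ± 1.14 to 89.3 ± 26.8 (log2 change 4.73), and Igfbp4, which binds IGFs and also inhibits Wnt receptors, rose from 29958 ± 4510.0 to 62641 ± 2304 (log2 change 1.07). Dkk2, which binds the Wnt co-receptor, fell from 3705 ± 432 to 1962 ± 75.9 (log2 change -0.91), as did Sfrp2, from 8459 ± 2262 to 3733 ± 872 (log2 change -1.18). The call of Igfbp4 ended without WT 2 (limma adjusted p = 0.0583). The call of Sfrp2 ended without WT 2 or 3 (limma adjusted p 0.0662 to 0.0694). Over the members, the number called lower became 6 without Smo* 2 or 3. The list's median was -0.34 without Smo* replicate 3.

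Targets and effectors of Wnt signalling through beta-catenin, counted as 1 list, held more calls lower than higher. Of 19 tested, 2 were higher in Smo*, 6 were lower and 11 did not pass the test, with a median log2 fold change of -0.10. Axin2, a feedback inhibitor and the most used reporter of the pathway, had 4102, 3950.4 and 4415 normalized counts in WT and 1071, 1390.3 and 2281 in Smo* (log2 change -1.46 with SE 0.25, limma adjusted p = 0.0112). No Smo* library reached the WT range. Apcdd1, an inhibitor at the cell surface, fell from 31179 ± 722 to 11881 ± 308 (log2 change -1.39), the feedback inhibitor Nkd2 fell from 7761 ± 1183 to 2941 ± 1079 (log2 change -1.47), and Bambi, a pseudoreceptor that dampens BMP and TGF-beta signals, fell from 4524 ± 693 to 1049 ± 555 (log2 change -2.27). Tnfrsf19, also called Troy, fell from 2888 ± 56.3 to 1429.8 ± 448 (log2 change -1.06). Lef1 completed the group that fell, and Lgr5 and the transcription factor Twist1 (0.48 on the log2 scale) rose. The calls of Axin2, Nkd2 and Bambi ended without WT 2 or 3 (limma adjusted p 0.0517 to 0.0826). The call of Tnfrsf19 ended without WT 1, 2 or 3 (limma adjusted p 0.0571 to 0.0706). The call of Twist1 ended without Smo* 1 or 2, or WT 1, 2 or 3 (limma adjusted p 0.0578 to 0.109). Counted again, the number called higher became 0 without WT 1 or 3 and 1 without Smo* 1 or WT 2, and the number called lower became 1 without WT 2 and 2 without WT 3.

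The TCF/LEF core CTTTGAT (reverse complement ATCAAAG), searched on both strands in the same 250-base windows, was in 2.40% of all windows of tested genes, in 1.34% of windows of genes higher in Smo* and in 28 of 739 windows of genes lower in Smo* (3.79%). Among the list of Wnt targets and effectors 2 genes held it, Sp5 and Tnfrsf19. The Tnfrsf19 window with the motif is shown because the gene fell, and the motif is in capitals. The window before another start of Tnfrsf19 (chr14:61046856-61047105) did not hold it. A match describes the letters and shows no binding.

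Tnfrsf19 (chr14:61037988-61038237, - strand): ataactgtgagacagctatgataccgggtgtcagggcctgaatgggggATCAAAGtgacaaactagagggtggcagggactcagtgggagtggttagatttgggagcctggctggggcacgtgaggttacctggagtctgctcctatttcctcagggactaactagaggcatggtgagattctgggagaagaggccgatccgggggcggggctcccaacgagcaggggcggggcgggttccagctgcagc

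BMP and activin genes that changed were mainly lower in Smo*. Of 26 BMP ligands, antagonists and response genes, 1 was higher in Smo*, 5 were lower and 20 did not pass the test, with a median log2 fold change of -0.27. Nog encodes noggin, the BMP antagonist that promotes entry into anagen. It had 967, 1463 and 1259 normalized counts in WT and 210.5, 283 and 96.3 in Smo* (log2 change -2.75 with SE 0.37, limma adjusted p = 0.00409). The ligand Bmp2 fell from 1801 ± 219 to 570.2 ± 150.4 (log2 change -1.69), Bmp3 fell from 10876 ± 795 to 3679 ± 1353 (log2 change -1.64), and the response genes Bambi (-2.27) and Smad6 (-1.44) fell on the log2 scale. Chrdl1, a chordin-like antagonist, rose from 1824 ± 716 to 5405 ± 2014 (log2 change 1.57). Among 20 activin and TGF-beta genes, 1 was higher in Smo*, 3 were lower and 16 did not pass the test, with a median log2 fold change of -0.23. Beside Inhba, the other activin subunit Inhbb fell from 849.9 ± 221 to 386 ± 77.8 (log2 change -1.12) and the ligand Tgfb1 fell from 1337 ± 129.96 to 862 ± 79.8 (log2 change -0.63). Tgfbi, a matrix protein induced by TGF-beta, rose from 17236 ± 4078 to 35436 ± 9732 (log2 change 1.03). The call of Bmp3 ended without WT 2 (limma adjusted p = 0.0531). The calls of Bambi and Smad6 ended without WT 2 or 3 (limma adjusted p 0.058 to 0.0703). The call of Chrdl1 ended without Smo* 1 or WT 2 or 3 (limma adjusted p 0.0675 to 0.104). The call of Inhbb ended without Smo* 2 or WT 1 or 2 (limma adjusted p 0.061 to 0.108). The call of Tgfb1 ended without Smo* 1 or WT 1, 2 or 3 (limma adjusted p 0.0514 to 0.0995). The call of Tgfbi ended without Smo* 1 or 3, or WT 1, 2 or 3 (limma adjusted p 0.0824 to 0.165). In the BMP list the number called higher became 0 without Smo* 1 or WT 2 or 3 and 4 without Smo* 3, and the number called lower became 2 without WT 2 and 3 without WT 3, with a median of 0.03 without Smo* replicate 3. In the activin list the number called higher became 0 without Smo* 1 or WT 2 or 3 and 2 without Smo* 3, and the number called lower became 1 without WT 1 or 2 and 5 without Smo* 3.

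FGF genes lower in Smo* included feedback inhibitors that FGF signalling itself induces. Of 20 tested, 2 were higher in Smo*, 7 were lower and 11 did not pass the test, with a median log2 fold change of -0.51. Spry1, a sprouty inhibitor, had 12636, 15461 and 14028 normalized counts in WT and 2771, 2102 and 2125 in Smo* (log2 change -2.60 with SE 0.15, limma adjusted p = 0.000106). Spry4 fell from 4374 ± 466 to 869 ± 268 (log2 change -2.38), and Etv5, an Ets factor downstream of FGF receptors, fell from 1662 ± 167 to 500.1 ± 147 (log2 change -1.77). The receptor Fgfr3 fell from 1373 ± 200.2 to 431 ± 118 (log2 change -1.70), and the remaining decreases on the log2 scale were in Fgf2 (-0.77), Fgf10 (-2.75) and the decoy receptor Fgfrl1 (-0.95). Fgf5, whose product ends anagen in mouse skin, had 0, 0 and 2.76 normalized counts in WT and 44.1, 53.1 and 155 in Smo* and was called higher (limma adjusted p = 0.00889), with 3 reads in the 3 WT libraries together, so no fold is given. Fgfr4 rose from 1062 ± 241 to 2266 ± 817 (log2 change 1.06). Dusp4, a phosphatase of the ERK pathway that is not on the list and was chosen after its values were seen, had 7367, 9701 and 9335 normalized counts in WT and 359, 447 and 519.8 in Smo* (log2 change -4.32 with SE 0.17, limma adjusted p = 8.09e-05), with tight groups that lay far apart. The calls of Fgf10, Fgfrl1 and Fgfr4 ended without Smo* 1 or WT 1, 2 or 3 (limma adjusted p 0.0662 to 0.153). The call of Fgf2 ended without Smo* 2 or WT 1, 2 or 3 (limma adjusted p 0.0546 to 0.0983). For the whole list, the number called higher became 1 without Smo* 1 or WT 1, 2 or 3, and the number called lower became 4 without WT 1, 2 or 3.

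Among 21 genes of IGF, PDGF and HGF signalling, 4 were higher in Smo*, 4 were lower and 13 did not pass the test, with a median log2 fold change of 0.26. Pappa, a protease that frees IGFs from their binding proteins, had 12715, 18038 and 15174 normalized counts in WT and 2914, 3617 and 2149 in Smo* (log2 change -2.42 with SE 0.21, limma adjusted p = 0.000578), and its relative Pappa2 fell as given above. The receptors Igf1r and Pdgfra fell, Igf1r from 9819 ± 1088 to 5564 ± 175 (log2 change -0.81) and Pdgfra from 33971 ± 1341 to 22952 ± 1314 (log2 change -0.57). The binding proteins Igfbp2 (0.72) and Igfbp4 (1.07), Pdgfc (0.93) and Hgf (1.17) rose on the log2 scale. The call of Igfbp4 ended without WT 2 (limma adjusted p = 0.0583). The call of Pdgfc ended without Smo* 1 or WT 2 or 3 (limma adjusted p 0.0585 to 0.093). The call of Igfbp2 ended without Smo* 1, 2 or 3, or WT 2 or 3 (limma adjusted p 0.0527 to 0.151). The call of Hgf ended without Smo* 1 or 2, or WT 1, 2 or 3 (limma adjusted p 0.0508 to 0.0915). The call of Pdgfra ended without any 1 library (limma adjusted p 0.072 to 0.134). Among them, the number called higher became 0 without WT 2 and 1 without Smo* 1 or WT 3. Notch genes held more calls higher than lower: of 16 tested, 5 were higher in Smo*, 1 was lower and 10 did not pass the test, with a median log2 fold change of 0.29. Dll1, a Notch ligand, had 115, 113 and 76.4 normalized counts in WT and 562, 528 and 491 in Smo* (log2 change 2.39 with SE 0.22, limma adjusted p = 0.000668). Jag1, another ligand, rose from 3288 ± 319.7 to 7068 ± 2119 (log2 change 1.06), Notch1 rose from 1784 ± 231 to 3342 ± 368 (log2 change 0.91), the target gene Heyl rose from 331 ± 42.4 to 703 ± 71.8 (log2 change 1.09), and Lfng, a glycosyltransferase that modifies Notch receptors, rose from 64 ± 9.66 to 259.7 ± 112 (log2 change 1.93). Notch4 fell from 721 ± 116 to 60.4 ± 7.07 (log2 change -3.55). The call of Jag1 ended without Smo* 1 or 2, or WT 1, 2 or 3 (limma adjusted p 0.0639 to 0.0981). In the Notch list no library moved either number by over 1.5 times.

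Retinoid genes showed 3 higher and 2 lower of 16 tested, with a median of -0.16. Stra6, the receptor that takes up retinol, had 33.3, 41.6 and 29.5 normalized counts in WT and 304, 99.6 and 306 in Smo* (log2 change 2.58 with SE 0.46, limma adjusted p = 0.0139). The carrier Rbp4 rose from 327 ± 83.4 to 704 ± 124 (log2 change 1.12), and Cyp26b1, which breaks down retinoic acid, rose from 7702 ± 2176 to 14769 ± 485 (log2 change 0.98). Crabp1 and the receptor Rarb fell, by log2 fold changes of -2.58 and -0.87. Signals to pigment cells were tested in 10 genes, of which 1 was higher in Smo*, 3 were lower and 6 did not pass the test, with a median log2 fold change of -0.51. Kitl, the ligand of the melanocyte receptor Kit, had 1405, 1194 and 1056 normalized counts in WT and 4449, 3219.7 and 3796 in Smo* (log2 change 1.65 with SE 0.16, limma adjusted p = 0.000897), each Smo* library above WT. The endothelin receptors Ednrb and Ednra fell, Ednrb from 11895 ± 4252 to 1332 ± 996 (log2 change -3.57) and Ednra from 3276 ± 289 to 2225 ± 185 (log2 change -0.56). Edn3, the endothelin made by the papilla, had 8696, 10479 and 15644 normalized counts in WT and 1519, 4256 and 242 in Smo* and missed the threshold (limma adjusted p = 0.0567). It was chosen after its values were seen, and without Smo* replicate 3 its adjusted p was 0.0149. The calls of Rbp4 and Crabp1 ended without WT 2 or 3 (limma adjusted p 0.0645 to 0.0781). The call of Stra6 ended without Smo* 1 or WT 2 or 3 (limma adjusted p 0.0502 to 0.0591). The call of Ednrb ended without WT 1, 2 or 3 (limma adjusted p 0.0568 to 0.0794). The call of Cyp26b1 ended without Smo* 1 or 2, or WT 1 or 3 (limma adjusted p 0.0538 to 0.0654). The call of Ednra ended without Smo* 1 or 2, or WT 1, 2 or 3 (limma adjusted p 0.0511 to 0.124). The call of Rarb ended without Smo* 1 or 3, or WT 1, 2 or 3 (limma adjusted p 0.0524 to 0.149). In the retinoid list the number called higher became 0 without WT 3 and 1 without Smo* 1 or WT 2, and the number called lower became 0 without WT 2 or 3 and 1 without Smo* 1 or WT 1. In the pigment list the number called higher became 3 without Smo* 3, and the number called lower became 1 without WT 1 or 2.

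Guidance genes, which steer axons and migrating cells, gave 8 higher and 3 lower of 34 tested, with a median log2 fold change of 0.26. The semaphorin Sema3a rose from 936 ± 120.1 to 1702 ± 151 (log2 change 0.87), Sema6a rose from 932 ± 54.7 to 1703 ± 182 (log2 change 0.87), and the ephrin receptor Ephb2 rose from 1669 ± 327 to 3937 ± 646 (log2 change 1.24). Sema3g (0.87), Sema5a (0.65), Ntn1 (0.96), Plxnc1 (1.86) and Nrp1 (0.91) were the other genes that rose on the log2 scale. The ephrin Efna5 fell from 2791 ± 442 to 1494 ± 163 (log2 change -0.90), and the receptors Robo1 (-1.41) and Unc5b (-0.78) fell too. Cadherins and neural adhesion molecules gave 4 higher and 7 lower of 31. Cntn1, a contactin, had 16135, 16774 and 21443 normalized counts in WT and 1641, 2697 and 1020.4 in Smo* (log2 change -3.44 with SE 0.31, limma adjusted p = 0.000697). Ncam2 fell from 1622 ± 297 to 184 ± 69.3 (log2 change -3.19) and Cdh6 fell from 2257 ± 150.2 to 414 ± 108 (log2 change -2.48), and Cdh11 (-1.42), Cdh22 (-1.62), Ncam1 (-1.50) and Lrrtm3 (-3.85) were lower with them on the log2 scale. Cdh5, the cadherin of endothelial cells, had 151, 42.8 and 88.4 normalized counts in WT and 2271, 1126 and 2054 in Smo* (log2 change 4.37 with SE 0.45, limma adjusted p = 0.00125), and Pcdh10 (1.25), Cntn4 (2.47) and Lrrn1 (1.89) rose. For guidance genes the number called higher became 3 without WT 3, 4 without WT 2 and 5 without Smo* 1, and the number called lower became 0 without WT 3, 1 without WT 2, 5 without Smo* 3 and 6 without Smo* 2. For adhesion genes the number called higher became 1 without WT 2, 2 without Smo* 1 or 2 and 8 without Smo* 3, and the number called lower became 4 without WT 2. The calls of Lrrtm3 and Lrrn1 ended without WT 2 (limma adjusted p 0.0524 to 0.0552). The calls of Efna5 and Plxnc1 ended without WT 3 (limma adjusted p 0.0527 to 0.0589). The calls of Sema3g, Robo1 and Cdh22 ended without WT 2 or 3 (limma adjusted p 0.0555 to 0.077). The call of Pcdh10 ended without Smo* 1 or 2, or WT 2 (limma adjusted p 0.0508 to 0.08). The call of Nrp1 ended without Smo* 1 or 3, or WT 2 or 3 (limma adjusted p 0.0706 to 0.151). The calls of Ntn1, Unc5b and Ncam1 ended without Smo* 1 or WT 1, 2 or 3 (limma adjusted p 0.0618 to 0.155). The calls of Sema5a and Cntn4 ended without Smo* 1 or 2, or WT 1, 2 or 3 (limma adjusted p 0.0716 to 0.143).

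Transcription factors of the papilla and mesenchyme gave 7 higher and 4 lower of 39 tested (median 0.29). Beside Sox18, Foxd1, Foxd2, Foxf1 and Twist1, the factors Meox2 (1.09) and Tfap2a (0.97) rose on the log2 scale. Tfap2c, of the same AP-2 family as Tfap2a, fell from 2324 ± 53.7 to 605 ± 173 (log2 change -1.98). Tbx5 (-1.11), Alx4 (-1.39) and Zeb2 (-0.63) fell as well. The 2 AP-2 genes thus changed in opposite directions. The call of Tfap2a ended without WT 2 (limma adjusted p = 0.0567). The call of Meox2 ended without Smo* 1 or WT 2 or 3 (limma adjusted p 0.051 to 0.0744). The calls of Tbx5 and Alx4 ended without Smo* 1 or WT 1, 2 or 3 (limma adjusted p 0.0508 to 0.104). The call of Zeb2 ended without any 1 library (limma adjusted p 0.0572 to 0.153). In this list, the number called higher became 3 without WT 2 and 4 without WT 3, and the number called lower became 1 without Smo* 1 or WT 1, 2 or 3.

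Matrix genes were called in both directions. Among 30 collagens, 5 were higher in Smo*, 4 were lower and 21 did not pass the test, with a median log2 fold change of 0.21. Col4a6, a basement membrane chain, had 109, 110.5 and 79.2 normalized counts in WT and 307, 237 and 396 in Smo* (log2 change 1.63 with SE 0.26, limma adjusted p = 0.00892), and its neighbour Col4a5 rose from 1728 ± 326 to 2834 ± 485 (log2 change 0.72). Col7a1, of anchoring fibrils, rose from 2023 ± 367 to 4388 ± 1059.5 (log2 change 1.11), Col16a1 rose from 20348 ± 2584 to 35156 ± 4749 (log2 change 0.79), and Col6a1 rose from 59746 ± 10963 to 109680.0 ± 6955 (log2 change 0.89). Col13a1, a transmembrane collagen, fell from 1608 ± 196 to 252 ± 67.6 (log2 change -2.70), and Col8a2 (-1.94), Col23a1 (-1.54) and Col24a1 (-1.50) fell on the log2 scale. Of 40 proteoglycans and glycoproteins, 8 were higher in Smo*, 3 were lower and 29 did not pass the test, with a median log2 fold change of 0.29. Gpc3, a glypican that binds Hedgehog and Wnt ligands, had 17880.5, 13933 and 15369.7 normalized counts in WT and 48438, 43724 and 43604 in Smo* (log2 change 1.53 with SE 0.15, limma adjusted p = 0.00102), and its relative Gpc6 fell from 9181 ± 834 to 2846 ± 46 (log2 change -1.69). The WT and Smo* libraries of Gpc3 did not overlap. Postn rose from 45064 ± 10685 to 96609 ± 6731 (log2 change 1.13), Fbln2 rose from 23668 ± 4693 to 43748 ± 6053 (log2 change 0.90), Thbs1 rose from 7319 ± 1953 to 21005 ± 10832 (log2 change 1.44) and Spock1 rose from 243 ± 46.5 to 777 ± 241 (log2 change 1.63). Acan (0.94), Spock2 (1.37) and Hapln3 (1.12) also rose and Hapln1 (-1.45) fell.

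Some of these matrix calls rested on single libraries. The call of Spock1 ended without WT 2 (limma adjusted p = 0.0519). The calls of Col7a1, Col16a1, Col24a1 and Spock2 ended without WT 2 or 3 (limma adjusted p 0.0534 to 0.112). The call of Postn ended without Smo* 1 or WT 2 or 3 (limma adjusted p 0.0602 to 0.0943). The call of Thbs1 ended without WT 1, 2 or 3 (limma adjusted p 0.053 to 0.142). The calls of Col4a5 and Fbln2 ended without Smo* 1 or 2, or WT 2 or 3 (limma adjusted p 0.069 to 0.156). The calls of Col8a2, Col23a1 and Hapln3 ended without Smo* 1 or WT 1, 2 or 3 (limma adjusted p 0.055 to 0.142). The call of Col6a1 ended without Smo* 1, 2 or 3, or WT 2 or 3 (limma adjusted p 0.0659 to 0.157). The call of Acan ended without Smo* 1 or 2, or WT 1, 2 or 3 (limma adjusted p 0.0591 to 0.109). The call of Hapln1 ended without any 1 library (limma adjusted p 0.0579 to 0.179). For collagens the number called higher became 1 without WT 2 or 3 and 3 without Smo* 1 or 2, and the number called lower became 1 without WT 2 or 3 and 2 without Smo* 1 or WT 1. For proteoglycans and glycoproteins the number called higher became 1 without WT 2, 2 without WT 3, 4 without Smo* 1 and 5 without WT 1, and the number called lower became 1 without WT 2.

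Proteases that cut or process matrix, listed with their inhibitors, gave 7 higher and 1 lower of 26 tested (median 0.34). All of those called belong to the Adam and Adamts families, which make up most of the list. Adamts20, a protease needed for melanoblast survival in mouse skin, had 41, 58.2 and 41.4 normalized counts in WT and 725, 528 and 483 in Smo* (log2 change 3.60 with SE 0.25, limma adjusted p = 0.000237). Adam12 rose from 2044 ± 483 to 5018 ± 569 (log2 change 1.32), Adamts4 rose from 1554 ± 404 to 3877 ± 1283 (log2 change 1.30) and Adamts14 rose from 708 ± 114 to 1442 ± 374 (log2 change 1.01). Adamts12 (0.83), Adamts15 (1.04) and Adamts17 (0.70) rose on the log2 scale and Adamts6 (-0.88) fell. Laminins, nidogens and integrins gave 3 higher and 3 lower of 24. Egfl6, a matrix protein that anchors hair follicle cells through integrin alpha-8, had 21.3, 34.4 and 61.7 normalized counts in WT and 327, 290.2 and 157 in Smo* (log2 change 2.75 with SE 0.45, limma adjusted p = 0.00961). Itga8, that integrin chain, fell from 3271 ± 518 to 1103 ± 86.1 (log2 change -1.56), so the pair moved in opposite directions. Itgb8 rose from 41.6 ± 11.6 to 264 ± 36.5 (log2 change 2.67), Itga6 rose from 720.2 ± 116 to 1840.2 ± 573 (log2 change 1.32) and Itga1 fell from 2724 ± 321 to 1199 ± 461 (log2 change -1.25). The call of Itga6 ended without WT 3 (limma adjusted p = 0.0561). The calls of Adamts4 and Adamts12 ended without Smo* 1 or WT 2 or 3 (limma adjusted p 0.0514 to 0.117). The call of Adamts14 ended without Smo* 2 or WT 2 or 3 (limma adjusted p 0.0575 to 0.102). The call of Adamts15 ended without Smo* 1 or 2, or WT 2 or 3 (limma adjusted p 0.068 to 0.113). The call of Itga1 ended without Smo* 1 or WT 1, 2 or 3 (limma adjusted p 0.0578 to 0.104). The call of Adamts6 ended without Smo* 2 or WT 1, 2 or 3 (limma adjusted p 0.068 to 0.119). The call of Adamts17 ended without any 1 library (limma adjusted p 0.0587 to 0.133). For proteases the number called higher became 2 without WT 2 or 3, 3 without Smo* 1 and 4 without Smo* 2, and the number called lower became 0 without Smo* 2 or WT 1, 2 or 3. For the basement membrane list no library moved either number by over 1.5 times.

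Cell cycle genes lay above 0 as a list, but few were called. Of 35 tested, 3 were higher in Smo*, 0 were lower and 32 did not pass the test, with a median log2 fold change of 1.04, and 35 of 35 had a log2 fold change above 0. Mcm2, a subunit of the replicative helicase, had 213, 138 and 166 normalized counts in WT and 289.8, 681 and 510.2 in Smo* (log2 change 1.45 with SE 0.32, limma adjusted p = 0.0304). Mcm4 rose from 565 ± 85.7 to 1163 ± 246 (log2 change 1.03) and Pcna, the sliding clamp of DNA polymerase, rose from 801 ± 87.1 to 1306 ± 99.7 (log2 change 0.71). Of 12 D cyclins, CDK inhibitors and Myc genes, 6 were higher in Smo*, 0 were lower and 6 did not pass the test, with a median log2 fold change of 0.72. Cdkn2a, which encodes the cell cycle inhibitors p16 and p19, had 5.12, 11.9 and 10.1 normalized counts in WT and 215, 126 and 105 in Smo* (log2 change 3.90 with SE 0.48, limma adjusted p = 0.00268). Every Smo* library was above every WT library, from very low WT values. Cdkn1a, the CDK inhibitor p21, rose from 1289 ± 279 to 3447 ± 1507 (log2 change 1.36), Mycl rose from 82.2 ± 33.9 to 301 ± 69.7 (log2 change 1.91) and Mycn rose from 9.7 ± 1.27 to 47 ± 13.8 (log2 change 2.14). Cdkn2c rose from 367 ± 38.4 to 574 ± 63.9 (log2 change 0.64) and Ccnd2 is given above. Genes that drive division and genes that restrain it were thus both called higher in the Smo* group. Their order among its libraries could differ: Smo* replicate 1 was the lowest of the group in Mcm2 and the highest in Cdkn2a. The calls of Mcm4 and Cdkn1a ended without WT 2 or 3 (limma adjusted p 0.0567 to 0.102). The call of Pcna ended without Smo* 1 or WT 2 or 3 (limma adjusted p 0.0515 to 0.0679). The call of Mcm2 ended without Smo* 2 or WT 1, 2 or 3 (limma adjusted p 0.0533 to 0.117). The call of Mycn ended without Smo* 1 or 2, or WT 1, 2 or 3 (limma adjusted p 0.0759 to 0.121). The call of Cdkn2c ended without any 1 library (limma adjusted p 0.0563 to 0.147). For cell cycle genes the number called higher became 0 without WT 2 or 3 and 5 without Smo* 1. For the other list the number called higher became 2 without WT 2 or 3.

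Receptors and channels included large decreases. Cnr1, the cannabinoid receptor, had 1198, 1935 and 1229 normalized counts in WT and 40.8, 53.1 and 44.9 in Smo* (log2 change -4.92 with SE 0.24, limma adjusted p = 9.56e-05). Ptger3, a prostaglandin E2 receptor, had 8434, 8794 and 9638 normalized counts in WT and 1388, 1375 and 1121 in Smo* (log2 change -2.79 with SE 0.13, limma adjusted p = 9.56e-05), whereas Ptger4, another receptor for the same ligand, rose from 742 ± 35.7 to 1436 ± 333 (log2 change 0.93). In Ptger3 the groups were tight and far apart. Lpar4, a receptor for lysophosphatidic acid, fell from 1167 ± 126 to 519.8 ± 65.5 (log2 change -1.17), giving 1 higher and 3 lower of 19 prostaglandin and lipid mediator genes tested. Of 31 channel genes, 1 was higher in Smo*, 6 were lower and 24 did not pass the test, with a median log2 fold change of -0.02. The potassium channel Kcnn3 fell from 2959 ± 493 to 355 ± 227 (log2 change -3.25), the sodium channel Scn3a fell from 589 ± 23.1 to 68.1 ± 3.17 (log2 change -3.09) and the calcium channel Cacna1c fell from 3333 ± 638 to 875 ± 11.6 (log2 change -1.91). Cacna2d3 (-1.59), Kcnd3 (-1.41) and Kcnmb4 (-1.67) fell and Cacna1h (1.003) rose on the log2 scale. Among 13 RGS genes, whose products switch off G protein signals, Rgs2 fell from 4933 ± 393 to 986 ± 114 (log2 change -2.33), Rgs5 fell from 4235 ± 664 to 2705 ± 392 (log2 change -0.65), Rgs16 rose from 451 ± 97 to 1602 ± 554 (log2 change 1.78) and Rgs12 rose from 1094 ± 26.3 to 2056 ± 293 (log2 change 0.90). The call of Cacna2d3 ended without WT 2 or 3 (limma adjusted p 0.0637 to 0.0638). The calls of Kcnd3, Kcnmb4 and Cacna1h ended without Smo* 1 or WT 1, 2 or 3 (limma adjusted p 0.0526 to 0.112). The calls of Ptger4 and Rgs5 ended without Smo* 1 or 2, or WT 1, 2 or 3 (limma adjusted p 0.0501 to 0.122). For channels the number called higher became 0 without Smo* 1 or WT 1, 2 or 3 and 3 without Smo* 2 or 3, and the number called lower became 3 without WT 2 or 3, with a median of 0.13 without Smo* 3. For lipid mediators the number called higher became 0 without Smo* 1 or 2, or WT 1, 2 or 3 and 2 without Smo* 3. For RGS genes the number called lower became 1 without Smo* 1 or 2, or WT 1, 2 or 3.

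Immediate early genes, which respond within minutes to stimulation, gave 5 higher and 0 lower of 23 tested. The median log2 fold change of the list was 0.31, with 16 members above 0 and 7 below. Egr3 had 67.4, 95 and 41.4 normalized counts in WT and 1029, 757 and 471 in Smo* (log2 change 3.46 with SE 0.37, limma adjusted p = 0.00153), and Nr4a2, an orphan nuclear receptor, had 237, 178 and 221 normalized counts in WT and 2842, 1221 and 914 in Smo* (log2 change 2.80 with SE 0.38, limma adjusted p = 0.00411). Its relatives Nr4a1 and Nr4a3 rose with it, Nr4a1 from 11443 ± 3407 to 34147 ± 15039.6 (log2 change 1.52) and Nr4a3 from 773 ± 132 to 4914 ± 2708 (log2 change 2.51), as did Fosl2, from 7894 ± 1352 to 20592 ± 7506 (log2 change 1.34). All 3 Nr4a genes were thus higher in Smo*. Of 28 chemokines, cytokines and complement genes, 3 were higher in Smo*, 3 were lower and 22 did not pass the test, with a median log2 fold change of 0.31. Cxcl14 had 12936, 11402 and 21097 normalized counts in WT and 1349, 1457 and 693 in Smo* (log2 change -3.72 with SE 0.32, limma adjusted p = 0.000578). The monocyte chemokine Ccl2 rose from 1095 ± 526 to 4753 ± 1798 (log2 change 2.18), C2 rose from 786 ± 149 to 2333 ± 669 (log2 change 1.55) and Cxcl1 rose from 4434 ± 1007 to 12402 ± 6221 (log2 change 1.38), while Il34 fell from 503 ± 89.5 to 251 ± 18.8 (log2 change -0.99). The call of Ccl2 ended without WT 3 (limma adjusted p = 0.0522). The call of Il34 ended without Smo* 1 or WT 2 or 3 (limma adjusted p 0.0503 to 0.0818). The call of Fosl2 ended without WT 1, 2 or 3 (limma adjusted p 0.0532 to 0.0783). The call of Nr4a1 ended without Smo* 1 or 2, or WT 2 or 3 (limma adjusted p 0.0664 to 0.122). The call of Cxcl1 ended without Smo* 1 or 2, or WT 1, 2 or 3 (limma adjusted p 0.0669 to 0.161). For immediate early genes the number called higher became 3 without WT 2 or 3 and 8 without Smo* 3. For chemokines the number called higher became 1 without WT 3, and the number called lower became 1 without WT 2.

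Of 27 genes of cholesterol and fatty acid synthesis, 4 were higher in Smo*, 1 was lower and 22 did not pass the test, with a median log2 fold change of 0.39, where 4.05% of all genes tested were higher and 4.85% lower. Idi1 rose from 604 ± 84.3 to 1439 ± 552 (log2 change 1.20), Hmgcs1 from 2693 ± 369 to 4949.8 ± 1408 (log2 change 0.85), Insig1 from 2339 ± 141 to 4441 ± 1014 (log2 change 0.90) and Cyp51 from 1051 ± 80.6 to 2084 ± 776 (log2 change 0.93), while the desaturase Scd1 had 21827, 24783 and 31285 normalized counts in WT and 4479.5, 5908 and 4797 in Smo* (log2 change -2.35 with SE 0.17, limma adjusted p = 0.000289). Among 22 glycolysis and hypoxia genes the glucose transporter Slc2a1 rose from 719 ± 32.9 to 1483 ± 282 (log2 change 1.03) and Ndrg1 fell from 11582 ± 1937 to 5529 ± 2518 (log2 change -1.14). Mitochondrially encoded genes all lay below 0, at a median of -0.79 over 13, with mt-Cytb called (from 32529.9 ± 10442 to 15968 ± 292, log2 fold change -0.97). Limma called 0 members in 3 lists, which were interferon-stimulated genes (19 tested, median -0.24, 2 at an unadjusted p under 0.05, 0 by edgeR and 1 by DESeq2), circadian clock genes (18 tested, median 0.39, 4 at an unadjusted p under 0.05, 0 by edgeR and 2 by DESeq2) and cytosolic ribosomal proteins (34 tested, median -0.05, 0 at an unadjusted p under 0.05, 0 by edgeR and 0 by DESeq2). With 1 library left out, 1 circadian gene was called higher without Smo* 2 or WT 2, and the interferon list's median was 0.06 without Smo* 3. The call of Insig1 ended without WT 2 or 3 (limma adjusted p 0.0646 to 0.0681). The call of Idi1 ended without WT 1, 2 or 3 (limma adjusted p 0.0527 to 0.1). The call of Cyp51 ended without Smo* 1 or WT 1, 2 or 3 (limma adjusted p 0.078 to 0.161). The call of mt-Cytb ended without Smo* 1, 2 or 3, or WT 2 or 3 (limma adjusted p 0.0691 to 0.161). The call of Hmgcs1 ended without Smo* 1 or 2, or WT 1, 2 or 3 (limma adjusted p 0.0533 to 0.146). The call of Ndrg1 ended without Smo* 2 or 3, or WT 1, 2 or 3 (limma adjusted p 0.072 to 0.162). For cholesterol genes the number called higher became 0 without WT 2 or 3 and 1 without WT 1. For glycolysis genes the number called higher became 2 without Smo* 3, and the number called lower became 0 without Smo* 2 or 3, or WT 1, 2 or 3. For mitochondrially encoded genes the number called lower became 0 without Smo* 2 or 3, or WT 2 or 3 and 7 without WT 1.

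**Figure D3:**
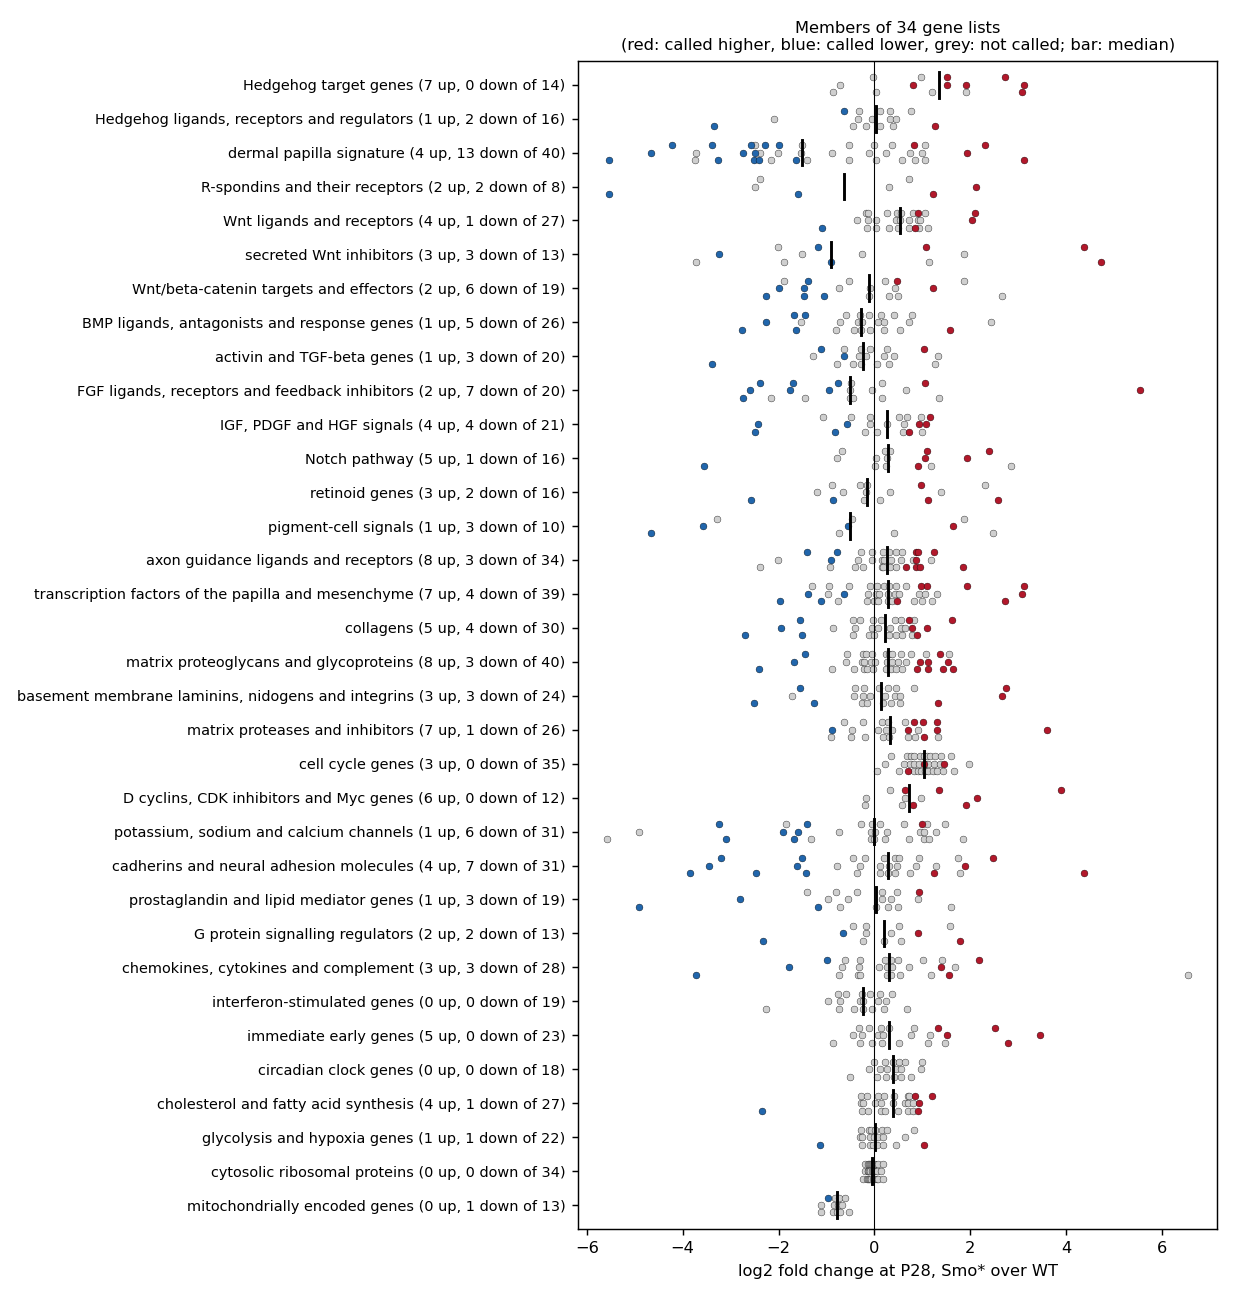
Log2 fold change of Smo* over WT at P28 for every tested member of 34 gene lists, with called members in red (higher) or blue (lower), others in grey and a bar at the list's median. All 35 cell cycle genes and 11 of the 14 Hedgehog targets sit to the right of 0, and the dermal papilla signature has its median to the left, at -1.52.

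Defining markers of the papilla were abundant in all 6 libraries, with a summed normalized count over 10 genes of 285049 to 330921 in WT and 51334 to 198791 in Smo*. The lowest sum was that of Smo* replicate 3. Of the 10, 4 were called lower (Corin, Lef1, Ndnf and Pdgfra) and 1 higher (Sox18). In this list the number called higher became 3 without Smo* 3, and the number called lower became 1 without WT 2. Its median log2 fold change was -0.55 with all 6 libraries and 0.04 without Smo* replicate 3. Markers of other cells that a sort could carry were tested beside them. Endothelial markers summed to 6051 to 7346 in WT and 7246 to 9350.2 in Smo*, and of 13 tested 3 were higher (Pecam1, Cdh5 and Flt1) and 0 lower, at a median of 1.22. Pecam1 rose from 92.4 ± 13.4 to 275 ± 83.3 (log2 change 1.53) and Flt1 rose from 73.5 ± 11.8 to 337 ± 61.9 (log2 change 2.18). Their part in the result for Cdh5 and Sox18, which endothelial cells also express, was not tested. Markers of the hair matrix, the inner root sheath and the shaft summed to 2539 to 3746 in WT and 339 to 829.8 in Smo*. Crym alone made up most of the sum in each WT library. Of 18 such genes with values, 8 were tested, and Crym and Krt71 were called lower. Crym had 1849, 1769.7 and 2681 normalized counts in WT and 76, 165 and 41.7 in Smo* (log2 change -4.66 with SE 0.44, limma adjusted p = 0.000815). Krt71, an inner root sheath keratin, had 17.1, 47.5 and 19.3 normalized counts in WT and 0, 0.948 and 0 in Smo* (limma adjusted p = 0.0301), with 1 read in the Smo* libraries together. The call of Pecam1 ended without WT 1 or 2 (limma adjusted p 0.0507 to 0.0646). The call of Krt71 ended without Smo* 1 or WT 1, 2 or 3 (limma adjusted p 0.062 to 0.158). For endothelial markers the number called lower became 1 without Smo* 2. For hair matrix markers the number called lower became 1 without Smo* 1 or WT 1, 2 or 3.

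Adipocyte markers summed to 16494 in Smo* replicate 3 against 947 to 1977 in the other 5 libraries. Limma called 0 of the 9 tested (4 at an unadjusted p under 0.05, 0 by edgeR and 1 by DESeq2), at a median of 1.43. Among them the number called higher became 3 without Smo* 2, and the number called lower became 1 without Smo* 3, where the median was 0.13. Cfd, the adipocyte protease adipsin, was chosen after its values were seen and had 0, 0 and 0 normalized counts in WT and 100.3, 0 and 8165 in Smo*. Their part in the low papilla values of that library was not tested. Without it, 21 signature genes were called lower, against 13 with it. Basal and outer root sheath keratinocyte markers summed to 1906 to 2046 in WT and 2069 to 3233 in Smo* with 1 of 15 higher (Itga6). Most of these markers pointed the other way from their sum, with 13 of the 15 below 0 and a median log2 fold change of -0.94. Fibroblast markers summed to 392032 to 680854 in WT and 546691 to 713789 in Smo* with 1 of 13 higher (Dlk1). Dermal sheath and smooth muscle markers summed to 24202 to 30071 in WT and 21697 to 31681 in Smo* with 1 of 13 higher (Cnn1) and 1 lower (Itga8). Pericyte markers summed to 22589 to 28388 in WT and 24521 to 32747 in Smo* with 1 of 9 lower (Rgs5), and Schwann cell markers to 994 to 1422 in WT and 906 to 1271 in Smo* with 1 of 7 lower (Cdh19). Melanocyte markers summed to 1008 to 1628 in WT and 1246 to 1915 in Smo*, immune cell markers to 1139 to 1497 in WT and 1095 to 1533 in Smo*, skeletal muscle markers to 692 to 942 in WT and 959.8 to 1953 in Smo* and erythroid markers to 84.7 to 145 in WT and 60.7 to 137 in Smo*. Limma called 0 genes in these 4 lists, where 6 of 10, 6 of 14, 5 of 10 and 5 of 5 markers were tested, in the same order. Of those tested, 0, 2, 2 and 0 were at an unadjusted limma p under 0.05, with 0 called by edgeR and 1 by DESeq2. A melanocyte marker was called higher without Smo* 3, where that list's median was 0.98 against 0.11 with it, and a skeletal muscle marker was called higher without Smo* 1. Tyrp1, Sox10, Cd3e, Itgam and Adgre1 fell below the minimum mean. For keratinocyte markers the number called higher became 0 without WT 3 and 2 without Smo* 2, and the number called lower became 2 without Smo* 3. A pericyte marker was called higher without Smo* 2, and a Schwann cell marker without WT 1. The call of Itga6 ended without WT 3 (limma adjusted p = 0.0561). The call of Cnn1 ended without Smo* 1 or WT 1, 2 or 3 (limma adjusted p 0.0566 to 0.112). The call of Rgs5 ended without Smo* 1 or 2, or WT 1, 2 or 3 (limma adjusted p 0.0776 to 0.122). The call of Dlk1 ended without Smo* 1 or 3, or WT 1, 2 or 3 (limma adjusted p 0.0503 to 0.131).

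**Figure D4:**
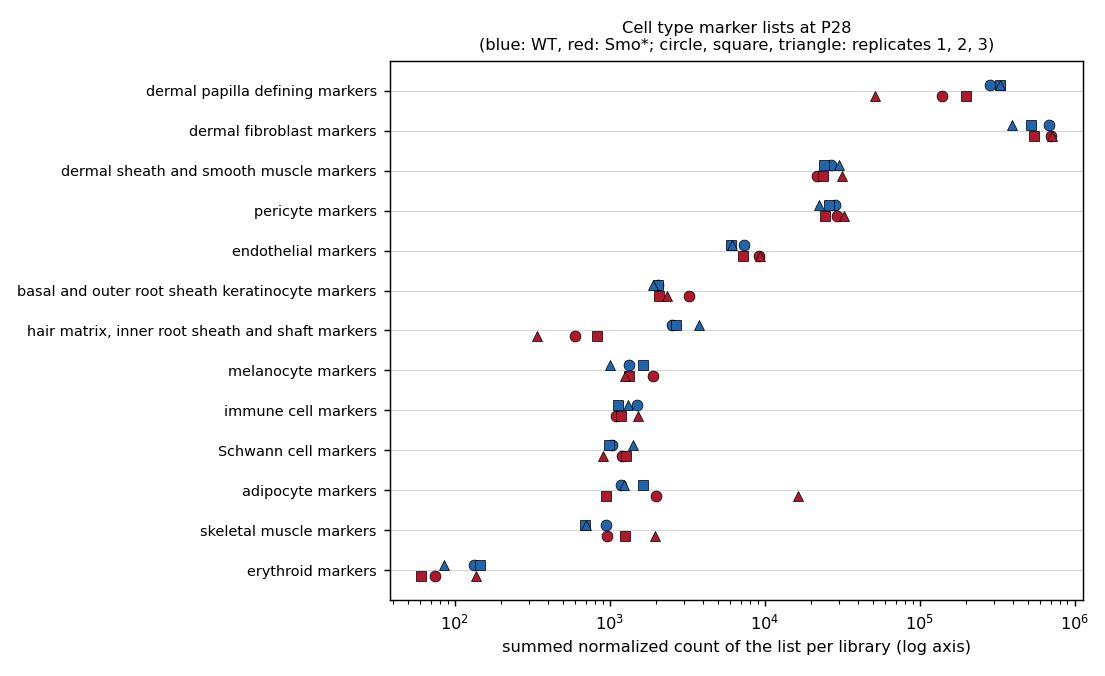
Summed normalized count of 13 marker lists in each P28 library on a log axis, with WT in blue, Smo* in red and circle, square and triangle for replicates 1, 2 and 3. Smo* replicate 3 (red triangle) is lowest for papilla markers and highest for adipocyte markers. The sum for hair matrix and inner root sheath, made up mostly of Crym in WT, is below WT in every Smo* library.

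The largest increases in called genes whose groups did not overlap and whose mean reached 50 were mostly in genes nearly silent in WT. Shisa3, a protein that retains Wnt and FGF receptors inside the cell, had 20.5, 40.4 and 39.6 normalized counts in WT and 1182, 614 and 944 in Smo* (log2 change 4.74 with SE 0.35, limma adjusted p = 0.000281). Msln, the surface protein mesothelin, had 0, 0 and 6.45 normalized counts in WT and 151, 120.4 and 200.01 in Smo*, and Iyd, which recovers iodide, had 6.83, 4.75 and 23 normalized counts in WT and 444, 223 and 400.0 in Smo*. Adamdec1, a secreted protease, had 0, 2.38 and 0 normalized counts in WT and 419.9, 19.9 and 624 in Smo* with 2 reads in the 3 WT libraries, so no fold is given. In Adamdec1, Smo* replicate 2 was far below the other Smo* libraries. The Rab GTPase Rab3b rose from 4.08 ± 6.07 to 295 ± 265 (log2 change 5.60), the adhesion protein Mpzl2 from 4.21 ± 2.89 to 117 ± 42.4 (log2 change 4.58), Sez6 from 6.1 ± 0.666 to 162 ± 81.3 (log2 change 4.42) and Vat1l from 3.53 ± 0.753 to 124 ± 63.8 (log2 change 4.63). Slco4c1, an organic anion transporter, Msantd1, Chn2, Tmem215 and Epha8 rose by 5.69, 5.62, 4.89, 4.34 and 4.26 on the log2 scale. The call of Adamdec1 ended without Smo* 1 or WT 1 or 3 (limma adjusted p 0.051 to 0.0677). The calls of Rab3b and Tmem215 ended without Smo* 1 or 2, or WT 1, 2 or 3 (limma adjusted p 0.0608 to 0.148).

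The largest decreases included genes absent or nearly so from the Smo* libraries. Npvf, a precursor of neuropeptides, had 118, 120.0 and 193 normalized counts in WT and 1.1, 0 and 0 in Smo* with 1 read in the Smo* libraries together, and no fold is given. Amph, amphiphysin, had 2171, 2430.1 and 2738 normalized counts in WT and 95.9, 151 and 0 in Smo*, and Kcnip4, a protein that modulates potassium channels, had 482, 419 and 636 normalized counts in WT and 6.61, 18 and 7.49 in Smo* (log2 change -5.56 with SE 0.41, limma adjusted p = 0.000289). Ugt8a, which makes galactosylceramide, had 579, 777 and 863 normalized counts in WT and 30.9, 25.6 and 0 in Smo*. Smo* replicate 3 was the lowest library in Amph and Ugt8a. P2ry6, a nucleotide receptor, fell from 203 ± 30.4 to 2.05 ± 1.79 (log2 change -6.31), Npffr2, a neuropeptide receptor, from 820.5 ± 16.8 to 28.2 ± 25.2 (log2 change -6.07), Dcdc2a from 191 ± 20.01 to 2.84 ± 1.71 (log2 change -5.76) and Klhl4 from 244 ± 39.8 to 11.3 ± 9.77 (log2 change -5.15). Slpi, a protease inhibitor, had 250.1, 318 and 246 normalized counts in WT and 13.2, 16.1 and 0 in Smo*, Camp, the antimicrobial peptide precursor, had 94.7, 96.2 and 101 normalized counts in WT and 3.31, 4.74 and 0 in Smo*, and S100a8 had 168, 85.5 and 193 normalized counts in WT and 5.51, 5.69 and 1.07 in Smo*. Orm1, Kng2 and Traf3ip3 fell too, with log2 changes of -5.72, -5.69 and -5.24. The calls of Orm1 and Camp ended without WT 3 (limma adjusted p 0.0525 to 0.0616). The calls of Ugt8a and Kng2 ended without WT 2 or 3 (limma adjusted p 0.0637 to 0.0748). The calls of Npffr2, Slpi and Klhl4 ended without WT 1, 2 or 3 (limma adjusted p 0.0523 to 0.102). The call of Amph ended without Smo* 1 or WT 1, 2 or 3 (limma adjusted p 0.0557 to 0.14). Of all genes called lower, 45 were at 0 in Smo* replicate 3, and all 45 were also called without it.

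Among the most abundant called genes, beside those given above, Lmna, the nuclear lamin, rose from 12209 ± 691 to 18974 ± 1532 (log2 change 0.63), the imprinted gene Peg3 from 7879.9 ± 1582 to 17806 ± 5632 (log2 change 1.15) and the hyaluronan-associated Itih5 from 9133 ± 2979 to 16329.7 ± 286 (log2 change 0.89). Apoe, the lipid carrier, had 29865, 32234 and 41639 normalized counts in WT and 6550.1, 7530.1 and 9434 in Smo* (log2 change -2.14 with SE 0.19, limma adjusted p = 0.000609), lower in every Smo* library. Gpx3, a secreted glutathione peroxidase, fell from 25821 ± 7982 to 13579 ± 426 (log2 change -0.88), the leptin receptor Lepr from 28212 ± 1947 to 16948 ± 2249 (log2 change -0.74) and the protocadherin Fat1 from 31134 ± 2892 to 19576 ± 3278 (log2 change -0.68). Zbtb20 fell from 32313 ± 6749.8 to 19776 ± 119 (log2 change -0.69), Laptm4a from 39305 ± 1844 to 24343 ± 3045 (log2 change -0.70) and the class I antigen H2-D1 from 29919.6 ± 1139 to 19673 ± 1930.1 (log2 change -0.61). H2-D1 belongs to a family of near-identical genes between which reads can be split, so its value is uncertain. The call of Lmna ended without WT 1, 2 or 3 (limma adjusted p 0.0535 to 0.1). The calls of Peg3 and Lepr ended without Smo* 2 or WT 1, 2 or 3 (limma adjusted p 0.0501 to 0.105). The call of Gpx3 ended without Smo* 1, 2 or 3, or WT 1 or 2 (limma adjusted p 0.0562 to 0.138). The call of Itih5 ended without Smo* 1, 2 or 3, or WT 2 or 3 (limma adjusted p 0.0573 to 0.147). The calls of Laptm4a and H2-D1 ended without Smo* 2 or 3, or WT 1, 2 or 3 (limma adjusted p 0.054 to 0.122). The calls of Zbtb20 and Fat1 ended without any 1 library (limma adjusted p 0.0512 to 0.166).

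The P28 differences were compared with those at P20 by an interaction term in 1 limma fit of all 12 libraries. The Smo* over WT difference itself differed between ages in 698 of 14790 genes (4.72%), with the log2 fold change higher at P28 in 279 (1.89%) and lower in 419 (2.83%). The number became 420 or 400 without P20 Smo* replicate 2 or 3, 329 or 405 without P20 WT replicate 2 or 3, 462 without P28 Smo* replicate 1, and 309 or 254 without P28 WT replicate 2 or 3. Age, sex and labelled stage change together between these libraries and cannot be told apart. At P20 itself limma called 102 of 14645 genes (0.696%). Papilla genes that differed between ages included Corin and Rspo4. Corin had 457, 766 and 416 normalized counts in WT and 1044, 785 and 711 in Smo* at P20, and the difference of log2 fold changes, P28 minus P20, was -5.32 (SE 0.86, limma adjusted p = 0.00581). Rspo4 had 476, 534 and 553 normalized counts in WT and 176, 339.7 and 667 in Smo* at P20, with a difference of -4.93 (SE 0.75, limma adjusted p = 0.00407). In both genes the 3 P28 WT libraries were the highest of the 12. Inhba had a difference of -4.03 (SE 0.50, limma adjusted p = 0.00107) and Sfrp1 of -3.62 (SE 0.28, limma adjusted p = 7.96e-05). Hhip had 1528, 1039 and 1121 normalized counts in WT and 14815, 13619.8 and 13606 in Smo* at P20, where Smo* was the higher group, and a difference of -4.26 (SE 0.63, limma adjusted p = 0.00359).

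Among the other Hedgehog targets, the difference between ages for Gli1 was -0.11 (SE 0.32, limma adjusted p = 0.874) and for Ptch1 -1.36 (SE 0.51, limma adjusted p = 0.146), neither of which passed the test, which does not show that the effects are equal. For Foxd1 it was 1.72 (SE 0.30, limma adjusted p = 0.00857). Sfrp5 had a difference of 2.55 (SE 0.88, limma adjusted p = 0.115) and Cdh5 of 2.497 (SE 0.80, limma adjusted p = 0.0942). Of the 244 genes named in the text and tested at both ages, the difference passed the test in 106 and did not in 138, a share set in part by how they were chosen.

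**Figure D5:**
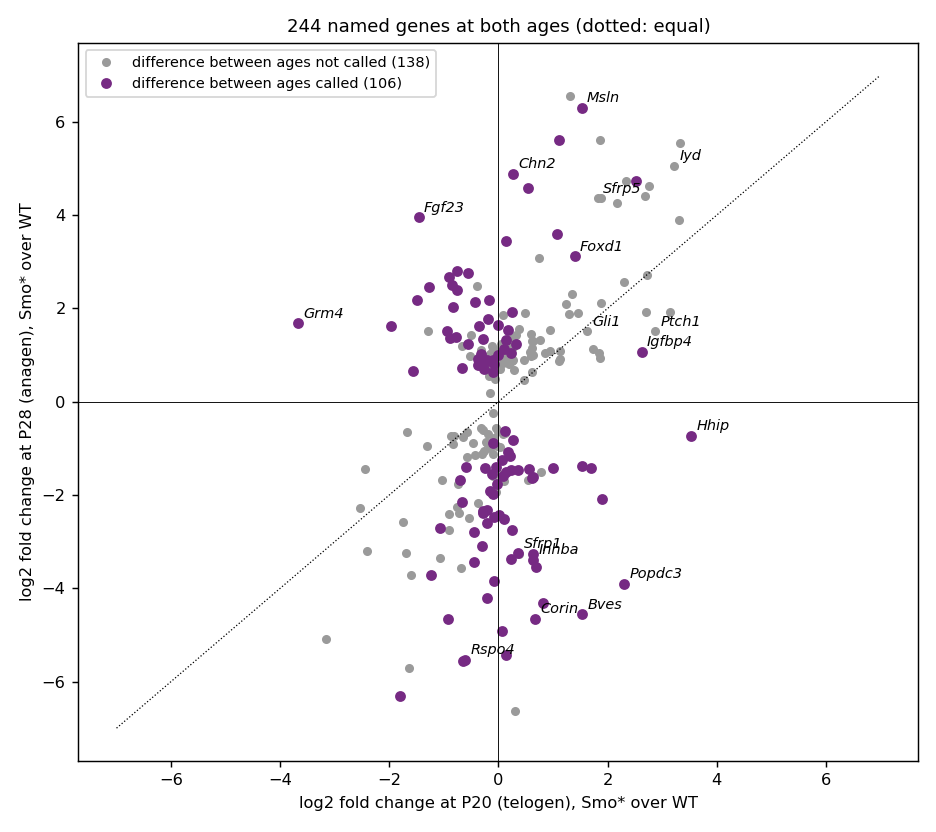
Log2 fold change of Smo* over WT at P28 (vertical axis) against P20 (horizontal axis) for 244 named genes, with purple for the 106 whose difference between ages passed the test and a dotted line where both are equal. Rspo4, Corin, Bves and Popdc3 lie well below the line, Hhip lies at -0.73 at P28 and 3.53 at P20, and Gli1 lies near the line.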

How the data were processed

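RNA of sorted dermal papilla cells was sequenced in 12 libraries, of which the 6 at P28 were compared here and the 6 at P20 entered the comparison between ages. Libraries were made with a strand-marking kit, per the labels' protocols. Trimmomatic, TopHat2 (version 2), HTSeq, DESeq2, mm10 and GRCm38.p4 are named without roles, per the submitters' processing notes. The strand setting used for counting is not stated there, and reads of overlapping and antisense genes cannot be told apart.

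The deposited signal is a normalized read count for 25887 genes, which the authors made by scaling each library by 1 factor. Dividing each value by what 1 read is worth in its library gave a whole number for 100% of values (tolerance 0.01 reads), which recovered the reads. The authors' deposited mean is that of the 12 libraries together, so these share 1 normalization. The same tables hold the authors' deposited log2 fold change with its standard error, a test statistic (a score), a p-value and an adjusted p-value. Symbols came from a GENCODE annotation of GRCm38, which named 98.7% of identifiers, and 0 sample columns were left unused. Replicates were numbered in accession order.

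The test was limma 3.58.1 (R 4.3.3) with a variance trend on log2(value + 1), over genes with a mean of at least 10 in the 6 P28 libraries, with Benjamini-Hochberg adjustment over all genes tested and a threshold of 0.05. A gene that passed is said to be called, to rise or to fall. This scale understates the change of low genes. Values are means ± SD (n = 3), and SE is limma's. The difference between ages was the interaction term of 1 fit over 12 libraries. For a single value, an exact permutation test of 3 against 3 cannot go below p = 0.1. On simulated counts with the P28 means and depths (14757 genes), limma called 29% of 100 genes given a log2 change of 1 and 79% of 100 given a change of 2. Unchanged genes made up 10% of its 120 calls. For the difference between ages (14790 genes) the shares were 14% and 59%, with 2.67% of 75 calls unchanged.

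The members and gene lists were chosen with earlier results of these data known. Genes were named by a rule: Hhip, Ptch1, Gli1 and Smo, the 15 largest changes (mean of at least 50, ordinary symbol, groups not overlapping) and the 15 most abundant called genes in each direction, up to 4 members of each list and, in each direction, the 5 genes that differed most between ages. Other called list members were added after their values were seen, so that most counts can be read by name. A few rule-named genes are not reported here. Alternatives were TMM and quantile scaling, no filter, a minimum mean of 50, pseudocounts of 0.5 or 5, no variance trend, robust empirical Bayes, limma on 12 libraries, edgeR 4.0.16 and DESeq2 1.42.0 on the recovered reads, the authors' adjusted p, and leaving out each library.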

Additional observations from a re-analysis of the deposited data

Results flagged for a closer look

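By the interaction test, the Smo* over WT difference changed between P20 and P28 in Hhip, in the 10 genes named for the largest such changes (5 in each direction) and in 5 others whose values stand in the report. All values are log2 fold changes at P28 minus those at P20, and the age, sex and labelled stage of the libraries change together. They come from the fit of all libraries, and no value with a library left out is given for these genes. Hhip differed by -4.26 (SE 0.63, limma adjusted p = 0.00359): it was higher in Smo* at P20 and did not pass the test at P28. Msln differed by 4.78 (SE 0.98, limma adjusted p = 0.019), Msantd1 by 4.51 (SE 1.07, limma adjusted p = 0.0355) and Chn2 by 4.63 (SE 0.70, limma adjusted p = 0.00387). These 3 had WT values of at most 14.3 normalized counts at P28 and rose there in Smo*.

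Fgf23, a hormone of the FGF family, had 8.53, 4.75 and 4.6 normalized counts in WT and 129, 74.9 and 114 in Smo* at P28 and 144, 122 and 41.4 normalized counts in WT and 177, 20.9 and 8.21 in Smo* at P20, a difference of 5.42 (SE 1.21, limma adjusted p = 0.0277). Grm4, a glutamate receptor, had 14.5, 7.13 and 20.3 normalized counts in WT and 52.9, 56 and 27.8 in Smo* at P28 and 737, 171 and 332 normalized counts in WT and 15.5, 30.5 and 38.3 in Smo* at P20, a difference of 5.35 (SE 0.79, limma adjusted p = 0.00349). In Grm4 the WT libraries were far higher at P20 than at P28.

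The 5 genes with the largest negative differences follow. Ugt8a differed by -8.93 (SE 1.63, limma adjusted p = 0.0113), Kng2 by -5.76 (SE 1.47, limma adjusted p = 0.0447) and Col9a1, a cartilage collagen chain, by -5.80 (SE 1.31, limma adjusted p = 0.0291). Popdc3 and Bves encode membrane proteins of the Popeye family that bind cyclic AMP. Popdc3 had 388, 353 and 456 normalized counts in WT and 17.6, 28.5 and 33.2 in Smo* at P28 and 1.13, 15.6 and 1.93 normalized counts in WT and 18.6, 40.1 and 14.6 in Smo* at P20, a difference of -6.21 (SE 0.94, limma adjusted p = 0.00406). Bves had 729, 828 and 789 normalized counts in WT and 14.3, 38.9 and 58.8 in Smo* at P28 and 3.39, 8.33 and 10.6 normalized counts in WT and 15.5, 24.4 and 26.5 in Smo* at P20, a difference of -6.09 (SE 0.70, limma adjusted p = 0.000648). Both family members were thus high in the P28 WT libraries and low in the other 9. Of the 5 other genes, Corin differed by -5.32 (SE 0.86, limma adjusted p = 0.00581), Rspo4 by -4.93 (SE 0.75, limma adjusted p = 0.00407), Inhba by -4.03 (SE 0.50, limma adjusted p = 0.00107) and Sfrp1 by -3.62 (SE 0.28, limma adjusted p = 7.96e-05). Foxd1 differed in the other direction, by 1.72 (SE 0.30, limma adjusted p = 0.00857).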

How the results depend on the processing

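The P28 count of 1313 genes stayed within 1.5 times under TMM, quantile scaling, both filters, both pseudocounts, robust empirical Bayes and edgeR. It was 2086 with limma on 12 libraries, 2312 with DESeq2, 638 with no variance trend and 2880 by the authors' adjusted p. In the same order, genes higher in Smo* numbered 995, 1212, 253 and 1446, and genes lower 1091, 1100, 385 and 1434. With 1 library left out the counts lay between 461 and 1619 in all, 183 and 810 higher, and 276 and 809 lower. Hedgehog targets called higher lay between 4 and 7 with 1 library left out. Papilla signature genes called lower were 20 with limma on 12 libraries and lay between 6 and 21 with 1 library left out. The 698 genes that differed between ages became 384 with no variance trend, and lay between 254 (without P28 WT replicate 3) and 922 (without P28 Smo* replicate 2). The causes were not tested.

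Of 261 genes followed by name, 233 were called, 97 of these kept the call in all 18 alternatives and 0 reversed, while 18 of 28 not called gained a call in at least 1. Hhip, not called, lay between -1.23 without Smo* replicate 2 and 0.0024 without Smo* replicate 3. No paired analysis was possible because the labels give no replicate numbers shared between groups. Depth limits genes with few reads in a group. No fold is given at 3 reads or fewer, and folds that rest on few more move with the pseudocount: between pseudocounts of 0.5 and 5, Orm1 (5 reads in Smo*) lay between -6.42 and -4.001 on the log2 scale, P2ry6 (6) between -6.77 and -4.91, Dcdc2a (8) between -6.00 and -4.66, Sost (8 in WT) between 4.97 and 3.64 and Rab3b (13 in WT) between 6.06 and 4.30.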

Other observations

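Asip, the agouti signal that turns pigment cells to yellow pigment, is on the list of pigment-cell signals but was not called and was chosen after its values were seen. At P28 it had 79.4, 128 and 391 normalized counts in WT and 2169, 3788 and 85.6 in Smo* (log2 change 2.48 with SE 1.29, limma adjusted p = 0.265). Smo* replicates 1 and 2 were far above every WT library, while Smo* replicate 3 was lower than 2 of the 3 WT libraries. Without that library the limma adjusted p was 0.00359. At P20 it had 399, 173 and 114 normalized counts in WT and 107, 213 and 152 in Smo*, with no group standing apart.

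In Smo* replicate 3, 218 tested genes were at 0 although both other Smo* libraries were at 10 or more. The same count was 0 to 4 in each of the other 5 P28 libraries.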
